A study of Mus musculus with 3 samples.

Results

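Transcripts of superoxide dismutases, glutathione peroxidases, catalase and metallothioneins were followed across the cell types of the mouse cochlea at postnatal day 14 (P14) and day 28 (P28). The set held 10 of the 32285 genes in the count matrices, matched by symbol: *Sod1*, *Sod2*, *Sod3*, *Gpx1*, *Gpx3*, *Gpx4*, *Cat*, *Mt1*, *Mt2* and *Mt3*. Each library pooled dissociated, unsorted cochlear cells of 7 mice (14 ears) of the strain labelled C57/B6. These mice carried no transgene or treatment in the labels. P14 was covered by 1 library and P28 by 2, named P28 replicate 1 and replicate 2. The tissue was freed from its bone by hand, and cells of the base are under-represented, per the methods. No source says which ears or mice a cell came from.

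Superoxide dismutases turn superoxide into hydrogen peroxide, which catalase and the glutathione peroxidases then remove. *Sod1* encodes the copper-zinc enzyme of the cytosol, *Sod2* the manganese enzyme of mitochondria and *Sod3* a secreted enzyme, while catalase works in peroxisomes. *Gpx1* encodes the common intracellular glutathione peroxidase, *Gpx3* a secreted one and *Gpx4* the enzyme that reduces lipid peroxides in membranes. Metallothioneins are small cysteine-rich proteins that bind zinc and copper. *Mt1* and *Mt2* are induced by metals in many tissues, whereas *Mt3* is best known from the nervous system. Hair cells, and outer hair cells (OHCs) above all, are known to be sensitive to oxidative damage by noise, ageing and ototoxic drugs.

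Barcodes with 200 to 6000 genes and at most 15% mitochondrial unique molecular identifiers (UMIs) were kept, 1662, 5649 and 7065 in P14, P28 replicate 1 and P28 replicate 2, or 14376 of 32657. Values of a class are given in that order throughout, and a class seen at P28 alone has 2 values. The median depth was 2475.5, 2421 and 2036 UMIs per cell. Cells were clustered with the 10 genes left out of the variable genes, and clusters were named from marker genes, which gave 19 classes. The 7 markers of OHC-like cells, among them *Slc26a5* and *Ocm*, summed to 37833, 23931 and 24236 CPM in that class and to 448, 485 and 579 CPM in IHC-like cells. OHC-like and inner hair cell (IHC)-like cells numbered 277, 367 and 283 and 60, 113 and 76. Deiters' and pillar cell (DC/PC)-like cells numbered 75, 74 and 42, Reissner's membrane (RM)-like cells 40, 429 and 423, and tympanic border cell (TBC)-like cells 65, 938 and 1228. The sulcus and Hensen's cell class is written ISC/HeC/OSC-like. Its own markers summed to 16674, 8259 and 7390.5 CPM there and to 2618, 1369 and 1173 CPM in DC/PC-like cells. The DC/PC markers summed to more, 26451, 38459 and 30969 CPM, in ISC/HeC/OSC-like cells than the 16970.4, 21316 and 18536 CPM of DC/PC-like cells, so the markers do not set these 2 classes apart on both lists. Inner phalangeal and border cells (IPhC/IB-like), spiral ganglion neurons (SGN-like, 333 and 297 cells) and Schwann and satellite glia (SC/SGC-like, 73 and 43 cells) reached 20 cells at P28 alone, and strial marginal (MC-like, 21 cells) and intermediate cells (IC-like, 147 cells) in P28 replicate 2 alone. P14 cells of these types could be among the cells without a class name. A level is in CPM, the gene's UMIs in a class and library scaled to a common total of UMIs. UMIs count transcript ends, so levels were not divided by length. A count of 0 allows up to 3.69 UMIs, the upper end of the exact 95% Poisson interval. All intervals cover counting error only. Haemoglobin transcripts were found outside erythroid-like cells and differed between libraries, with 238, 1235 and 7242 CPM in OHC-like cells. Their part in the levels was not tested.

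**Figure D1:**
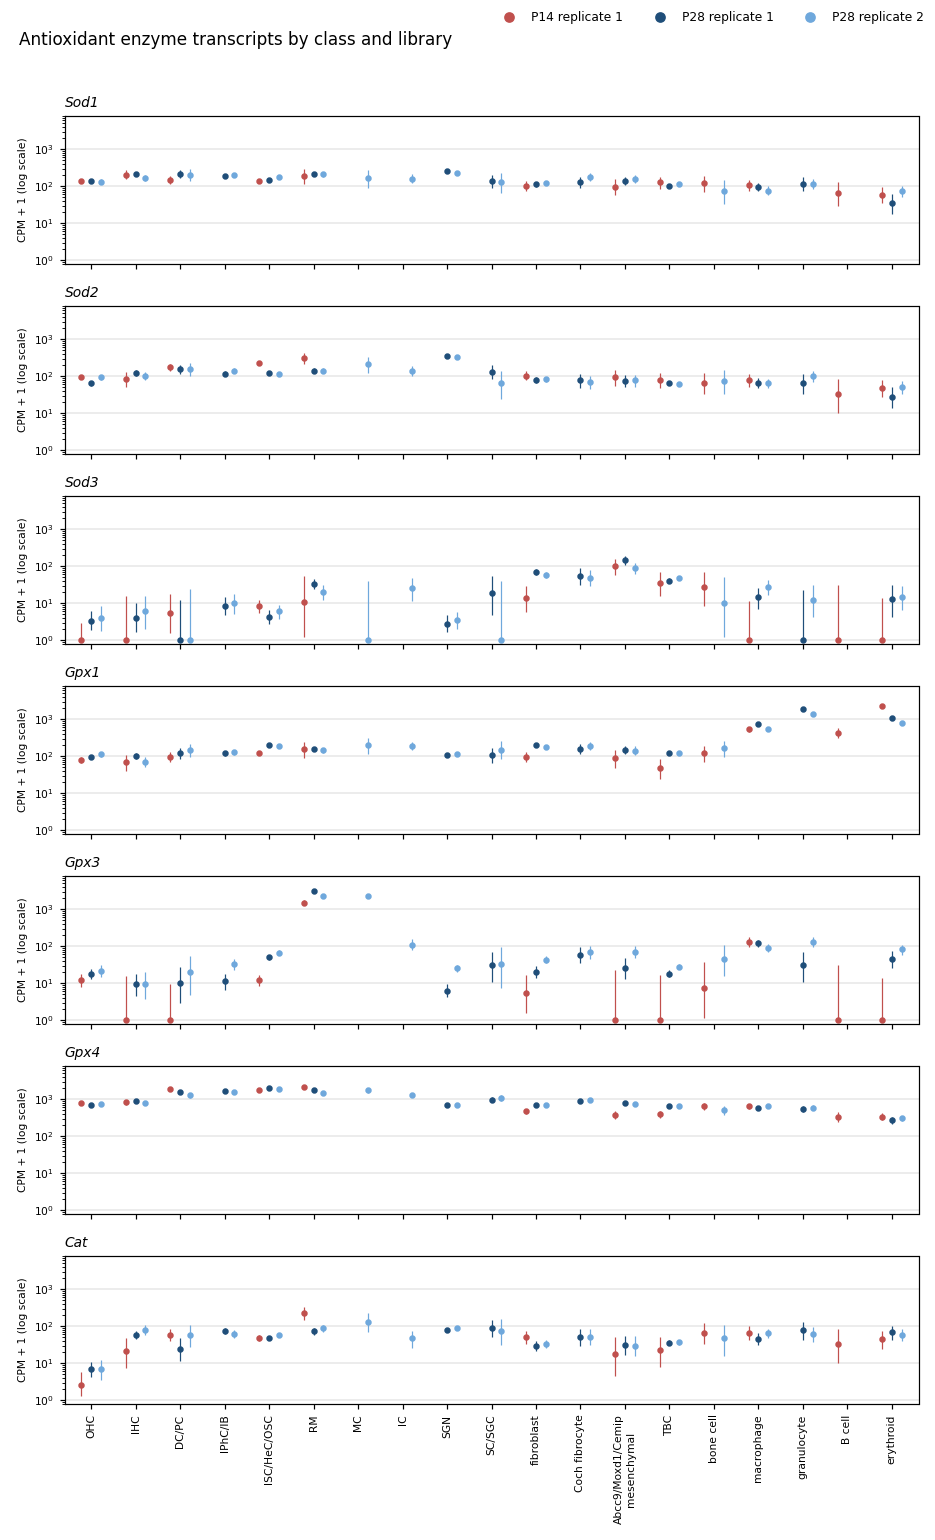
Levels of the 7 enzyme transcripts by class (axis of categories) and library (colour), in CPM plus 1 on a log scale, with exact 95% Poisson intervals as bars. *Gpx3* stands at 1511, 3093 and 2237 CPM in RM-like cells, and *Cat* at 1.60, 6.00 and 5.79 CPM in OHC-like cells.

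Catalase transcripts were scarce in OHC-like cells. *Cat* was at 1.60, 6.00 and 5.79 CPM there, from 3, 15 and 8 UMIs. In IHC-like cells it was at 19.8, 56.8 and 79.0 CPM, and in the DC/PC-like and IPhC/IB-like cells, pooled as supporting cells, at 58.4, 65.0 and 60.0 CPM. The OHC-like value lay below both in each of the 3 libraries. *Cat* was 9.93-fold lower in OHC-like than in IHC-like cells (log2 fold change -3.31 ± 0.29, adjusted p = 2.73e-05, SE, edgeR on 3 sums a group) and 14.1-fold lower than in supporting cell-like cells (-3.82 ± 0.31, adjusted p = 1.11e-05). Both calls were kept under each of the 12 alternative settings that gave a value. Thinning, a minimum of 10 UMIs in every sum and a limit of 3000 genes per cell left *Cat* with no fitted value in either comparison. The markers of IPhC/IB-like cells, the neighbours of IHCs, summed to 1054, 2484 and 2346 CPM among IHC-like cells, where the OHC-like sums held 386, 488 and 469.8 CPM of them. In IPhC/IB-like cells they summed to 3854 and 3795 CPM, beside 74.4 and 60.5 CPM of *Cat*. Their part in the *Cat* difference was not tested.

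The share of OHC-like cells with a *Cat* UMI was 1.08%, 3.54% and 2.83%, at a median of 6509, 5251 and 3751 UMIs per cell. The share of IHC-like cells was 8.33%, 32.7% and 46.1%, at a median of 1025.5, 9309 and 8006.5 UMIs. IHC-like cells were thus shallower at P14 and deeper at P28. With each cell thinned to 1000 UMIs the shares were 0%, 0.548% and 1.06% in OHC-like and 3.23%, 4.04% and 6.94% in IHC-like cells. The thinned IHC-like cells numbered 99 and 72 at P28 and at most 60 at P14. The lower share of OHC-like cells in each library thus rests on few cells with a UMI, and it was not tested. The 0% of OHC-like cells at P14 allows up to 1.41%.

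Outside the hair cells *Cat* was highest in RM-like cells at P14, at 228 CPM (95% interval 146 to 339). At P28 it had 72.5 and 87.2 CPM there. SGN-like cells were at 79.2 and 89.1 CPM and SC/SGC-like cells at 89.3 and 75.2 CPM. In P28 replicate 1 the intervals of RM-like (57.7 to 89.99), SGN-like (70.1 to 89.2) and SC/SGC-like cells (49.99 to 147) overlapped, so their order was not resolved. In P28 replicate 2 the MC-like cells had the highest value of a named class, 131 CPM. It came from 21 cells with 91819 UMIs of all genes, so its place above the other classes was not resolved.

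Between OHC-like and IHC-like cells 8 members were tested, of which OHC-like cells had more of 1 and less of 1, where 16.8% of all genes tested were higher and 17.1% lower. *Sod3* and *Mt2* did not reach the count filter. The lower member was *Cat* and the higher one *Gpx3*, at 11.2, 16.8 and 21.0 CPM in the OHC-like and 0, 8.25 and 8.41 CPM in the IHC-like sums (1.45 ± 0.44, adjusted p = 0.0305). The call was lost without P28 replicate 1 (adjusted p = 0.114) and without P28 replicate 2 (adjusted p = 0.124). It was also lost by DESeq2 (adjusted p = 0.121) and with no replicate block (adjusted p = 0.114). Both could pass the count filter through the group where they were high, and neither had a fitted value when every sum had to hold 10 UMIs. *Sod1* was at 138, 139 and 132 CPM against 206, 217 and 168 CPM, below IHC-like cells in each library, and did not pass the test (-0.39 ± 0.15, adjusted p = 0.0685). *Sod2* was at 95.4, 63.2 and 92.7 CPM against 83.2, 119.7 and 103 CPM, and the groups overlapped (-0.25 ± 0.21, adjusted p = 0.406). *Gpx1*, *Gpx4*, *Mt1* and *Mt3* did not pass the test either, with log2 values of 0.37, -0.055, 0.55 and 0.62.

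Against supporting cell-like cells OHC-like cells had more of 0 and less of 4 of the 8 members tested by edgeR, where 23.5% of all genes were higher and 28.5% lower. The count of higher members was 0 at an unadjusted p under 0.05 and 0 by DESeq2. *Gpx4*, which protects membrane lipids, was at 786, 699 and 725 CPM in the OHC-like and 1869.9, 1656 and 1526 CPM in the supporting cell-like sums, with no overlap. It was 2.39-fold lower in OHC-like cells (-1.26 ± 0.14, adjusted p = 8.13e-05). The mitochondrial *Sod2* was at 95.4, 63.2 and 92.7 CPM against 173, 122 and 142 CPM, also with no overlap (-0.88 ± 0.16, adjusted p = 0.00167). The *Sod2* call was lost without P28 replicate 1 (adjusted p = 0.0567). *Sod1* was at 138, 139 and 132 CPM against 151, 190.0 and 199 CPM and only just passed (-0.48 ± 0.18, adjusted p = 0.0473). It was kept under 2 of 14 alternatives, and it was lost without P28 replicate 1 (adjusted p = 0.315) and without P28 replicate 2 (adjusted p = 0.377). The supporting cells at P14 were DC/PC-like alone.

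**Figure D2:**
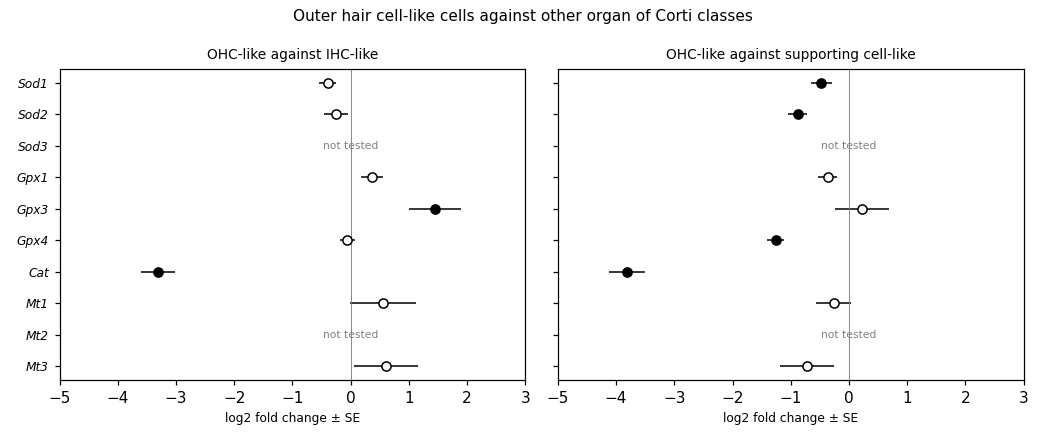
Log2 fold change with its SE of each member in OHC-like against IHC-like cells and in OHC-like against supporting cell-like cells, where values below 0 are lower in OHC-like cells. Filled points have an adjusted p under 0.05 in edgeR, and *Cat* stands farthest from 0, at -3.31 and -3.82.

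Against all other cells 9 of 10 members were lower in OHC-like cells and 0 higher by edgeR, where 30.2% of all genes were lower and 26.4% higher. The count of higher members was 0 at an unadjusted p under 0.05 and 0 by DESeq2. *Cat* was at 1.60, 6.00 and 5.79 CPM against 49.1, 52.1 and 57.4 CPM in all other cells (-3.44 ± 0.35, adjusted p = 0.00345). With at least 10 UMIs in every sum *Sod3*, *Cat*, *Mt2* and *Mt3* had no fitted value. These members could pass the count filter through the other cells, where they were higher. The calls lost were *Sod2*, *Gpx1*, *Gpx4* and *Mt2* without P28 replicate 1 (adjusted p = 0.0881, 0.051, 0.132 and 0.051) and *Sod2* and *Gpx4* without P28 replicate 2 (adjusted p = 0.0514 and 0.0664). *Sod2* was also lost with 200 to 3000 genes and at most 15000 UMIs (adjusted p = 0.0573). With no replicate block *Sod2* and *Gpx4* were lost (adjusted p = 0.0673 and 0.11). *Gpx4* differed less than *Cat*, at 786, 699 and 725 CPM against 1287, 1134 and 1013 CPM (-0.48 ± 0.11, adjusted p = 0.021). *Sod1*, the member not called, was at 138, 139 and 132 CPM against 127, 155 and 156 CPM (0.059 ± 0.14, adjusted p = 0.737). The same fit in IHC-like cells found 0 members higher and 6 lower, where 13.8% and 20.6% of all genes were. Higher members numbered 0 at an unadjusted p under 0.05 and 0 by DESeq2. *Cat* was not among them, at 19.8, 56.8 and 79.0 CPM against 37.7, 47.0 and 53.7 CPM (0.092 ± 0.27, adjusted p = 0.827), while *Gpx1* was lower, at 67.3, 100.1 and 69.0 CPM against 220.1, 193 and 196 CPM (-1.45 ± 0.24, adjusted p = 0.00161). Of the 6 lower members *Sod3*, *Gpx3*, *Mt1*, *Mt2* and *Mt3* had no fitted value with at least 10 UMIs in every sum.

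The secreted *Gpx3* marked Reissner's membrane and marginal cells. It was at 1511, 3093 and 2237 CPM in RM-like cells and at 2265 CPM in the MC-like cells, which face the endolymph of the cochlear duct as RM-like cells do. All cells other than RM-like ones, MC-like cells included, had 13.8, 24.6 and 49.9 CPM. *Gpx3* was 77.8-fold higher in RM-like cells (6.28 ± 0.36, adjusted p = 1.68e-15), a call kept under all 15 alternatives. The share of cells with a *Gpx3* UMI after thinning was 59.3%, 76.2% and 69.0% in RM-like and 1.15%, 1.10% and 2.83% in OHC-like cells. Before thinning it was 65.0%, 86.7% and 82.3% at a median of 1381, 2351 and 1955 UMIs, and 7.58%, 7.63% and 7.42% in OHC-like cells at 6509, 5251 and 3751 UMIs. Macrophage-like cells had 131, 121 and 89.6 CPM, beside a summed level of the 5 RM markers of 8.57, 315 and 119 CPM there and 14159, 10690.3 and 8255 CPM in RM-like cells. The part of RM transcripts in that level was not tested.

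*Gpx1* was highest in blood-like cells. Erythroid-like cells had 2329, 1090.2 and 808 CPM, granulocyte-like cells 1881 and 1348 CPM, macrophage-like cells 537, 742 and 536 CPM and the P14 B cell-like cells 428 CPM. The other named classes lay between 47.8 CPM, in TBC-like cells at P14, and 204 CPM, in ISC/HeC/OSC-like cells of P28 replicate 1, below the blood-like classes in every library. Haemoglobin chains summed to 37734 CPM in the B cell-like cells, 79573 and 22932 CPM in granulocyte-like cells and 277, 4181 and 8072 CPM in macrophage-like cells. Granulocyte-like cells also held 4282 and 2271 CPM of the B cell markers. The part of such transcripts of other cells in these *Gpx1* levels was not tested. *Gpx1* was 3.81-fold higher in macrophage-like than in all other cells (1.93 ± 0.22, adjusted p = 3.40e-04), where 2 members were higher and 3 lower, against 14.5% and 16.2% of all genes. Of the lower ones *Gpx4* was lost without P28 replicate 1 or 2 (adjusted p = 0.235 and 0.133). It was also lost with no replicate block (adjusted p = 0.104) and with up to 30% mitochondrial UMIs (adjusted p = 0.0633).

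In erythroid-like cells 2 members were higher and 0 lower by edgeR, against 0.916% and 1.35% of all genes. Lower members numbered 0 at an unadjusted p under 0.05 and 0 by DESeq2. *Gpx1* was at 2329, 1090.2 and 808 CPM against 127, 177 and 179 CPM in all other cells, and the fit put it 21.4-fold higher (4.42 ± 0.58, adjusted p = 8.10e-05), a call kept under all 15 alternatives. *Cat* was called higher (1.73 ± 0.46, adjusted p = 0.0477), yet its CPM of 43.9, 66.6 and 58.4 lay near the 36.9, 47.1 and 54.2 of all other cells. The fit scales each sum by TMM, and haemoglobin chains took 373791, 707310.0 and 633868 CPM of the erythroid-like sums. For both genes the fitted fold exceeded the ratio of the CPM in each library. The *Cat* call was lost without P28 replicate 1 (adjusted p = 0.657) and without P28 replicate 2 (adjusted p = 0.424). It was also lost under 4 other settings (adjusted p = 0.0504 to 0.475).

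*Gpx4* was abundant in epithelial classes. ISC/HeC/OSC-like cells had 1803, 2052 and 1888 CPM, RM-like cells 2129, 1749 and 1516 CPM, DC/PC-like cells 1869.9, 1586 and 1267 CPM and IPhC/IB-like cells 1672 and 1562 CPM. IHC-like cells had 816, 892 and 809 CPM and SGN-like cells 713 and 711 CPM, below these 4 classes in each library. Outside them MC-like cells had 1732 CPM, IC-like cells 1279 CPM and SC/SGC-like cells 971 and 1074 CPM. In ISC/HeC/OSC-like cells 3 members were higher and 5 lower, against 19.9% and 21.8% of all genes. *Gpx4* was 3.05-fold higher there than in all other cells (1.61 ± 0.14, adjusted p = 0.00166). Over all kept cells, this class included, it was at 1161, 1090 and 996 CPM. *Cat* was at 47.7, 47.6 and 57.5 CPM against 30.9, 47.4 and 53.8 CPM (0.65 ± 0.16, adjusted p = 0.0261). The *Cat* call was lost without P28 replicate 1 (adjusted p = 0.146) and without P28 replicate 2 (adjusted p = 0.112). It was also lost with at least 10 UMIs in every sum (adjusted p = 0.0563), with no replicate block (adjusted p = 0.0775) and after thinning (adjusted p = 0.082). *Sod1* was called higher (0.51 ± 0.14, adjusted p = 0.033), but at 139, 144 and 177 CPM against 125, 155 and 151 CPM it was lower on the CPM scale in P28 replicate 1. Here too the fit scales each sum by TMM. For *Gpx4*, *Cat* and *Sod1* the fitted fold exceeded the ratio of the CPM in each library. The *Sod1* call was lost without P28 replicate 1 (adjusted p = 0.231) and without P28 replicate 2 (adjusted p = 0.267). It was also lost under 4 other settings (adjusted p = 0.0687 to 0.101). Of the 5 lower members of this class, *Sod3* was lost without P28 replicate 1 or 2 (adjusted p = 0.202 and 0.21). *Gpx3* was lost without P28 replicate 1 (adjusted p = 0.052) and with no replicate block (adjusted p = 0.235).

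In DC/PC-like cells 1 member was higher and 5 lower, against 7.35% and 12.4% of all genes. The 5 lower ones had no fitted value with at least 10 UMIs in every sum. Of these the *Sod3* call was lost without P28 replicate 1 or 2 (adjusted p = 0.244 and 0.201). It was also lost by DESeq2 (adjusted p = 0.0989) and with no replicate block (adjusted p = 0.0744). The higher one was *Gpx4*, at 1869.9, 1586 and 1267 CPM against 1116, 1083 and 994 CPM (0.65 ± 0.17, adjusted p = 0.0134). The call was lost without P28 replicate 1 (adjusted p = 0.21) and without P28 replicate 2 (adjusted p = 0.0593). It was also lost under 6 other settings (adjusted p = 0.0526 to 0.518). In RM-like cells 4 members were higher and 1 lower, against 15.7% and 22.8% of all genes. Beside *Gpx3* they included *Cat*, at 228, 72.5 and 87.2 CPM against 34.4, 46.2 and 53.0 CPM (0.97 ± 0.22, adjusted p = 4.31e-04). The *Cat* call was lost by DESeq2 (adjusted p = 0.0522) and with at least 10 UMIs in every sum (adjusted p = 0.145).

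**Figure D3:**
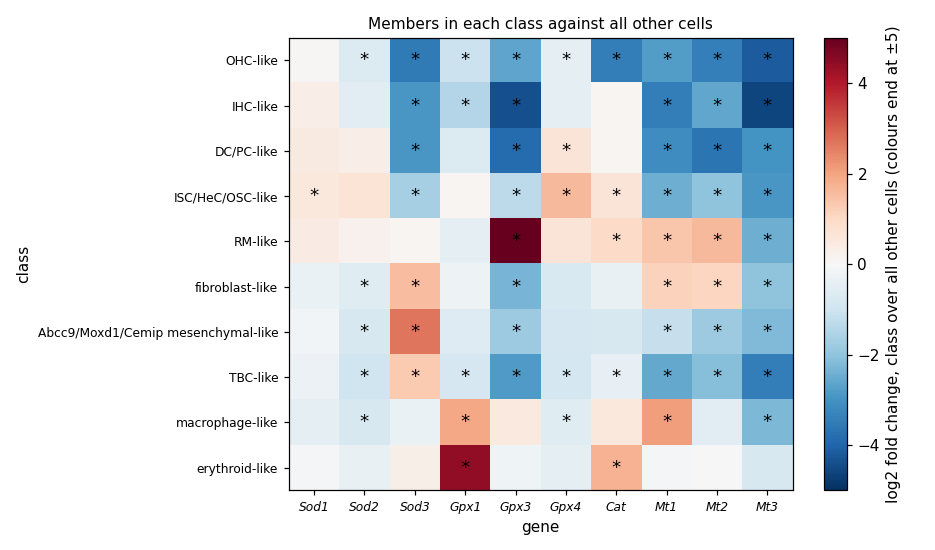
Log2 fold change of each of the 10 members in each of 10 classes over all other cells, with an asterisk where edgeR's adjusted p is under 0.05. Colours end at 5 in either direction, below the 6.28 of *Gpx3* in RM-like cells, and OHC-like cells have 9 members called lower.

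The dismutases differed in how widely they were found. *Sod1* was found in all named classes, from 33.3 CPM in erythroid-like cells to 249.9 CPM in SGN-like cells, both in P28 replicate 1, and was called in 1 of the 10 classes tested. *Sod2* was highest at P28 in SGN-like cells, at 343 and 339 CPM. Their intervals, 324 to 363 and 319 to 359.9, did not reach the RM-like ones, 118 to 162 and 118 to 167. Intervals of other classes were not compared in this way. MC-like cells were few, so the order of *Sod2* between them and SGN-like cells in P28 replicate 2 was not resolved. *Sod2* was called lower in 5 of the 10 classes tested, which were OHC-like, TBC-like, fibroblast-like, macrophage-like and mesenchymal-like cells, and higher in none by edgeR (0 at an unadjusted p under 0.05 and 0 by DESeq2). The *Sod2* call was lost without P28 replicate 1 in mesenchymal-like, fibroblast-like, macrophage-like and OHC-like cells (adjusted p = 0.329, 0.312, 0.101 and 0.0881) and without P28 replicate 2 in mesenchymal-like, fibroblast-like, macrophage-like and OHC-like cells (adjusted p = 0.278, 0.227, 0.0900 and 0.0514). With 200 to 3000 genes and at most 15000 UMIs the *Sod2* call was lost in the same classes (adjusted p = 0.0573 to 0.142). With no replicate block it was lost in mesenchymal-like, fibroblast-like and OHC-like cells (adjusted p = 0.0587 to 0.0674). After thinning it was lost in mesenchymal-like, fibroblast-like and macrophage-like cells (adjusted p = 0.0952 to 0.246). DESeq2 lost it in mesenchymal-like cells (adjusted p = 0.0896). SGN-like cells, present at P28 alone, were not among the classes tested.

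*Sod3*, the secreted dismutase, was a transcript of connective tissue. It was highest in the mesenchymal-like class marked by *Abcc9*, *Moxd1* and *Cemip*, at 97.5, 143 and 89.3 CPM against 6.75, 21.4 and 25.8 CPM in all other cells, 6.33-fold higher (2.66 ± 0.31, adjusted p = 6.17e-05). That class had 1 member higher and 5 lower, against 7.57% and 11.7% of all genes. Its *Gpx3* call was lost without P28 replicate 1 (adjusted p = 0.0611) and with no replicate block (adjusted p = 0.245). TBC-like cells, which line the lower face of the basilar membrane, had 34.8, 39.6 and 46.9 CPM (1.32 ± 0.14, adjusted p = 2.03e-05; 0.37 and adjusted p = 0.198 after thinning, which ended the call), with 1 member higher and 8 lower, against 24.4% and 30.6% of all genes. Fibroblast-like cells had 13.0, 69.9 and 57.9 CPM (1.56 ± 0.26, adjusted p = 0.00554), with 3 higher and 3 lower, against 12.4% and 18.8% of all genes. The fibroblast-like call was lost without P28 replicate 1 (adjusted p = 0.131). It was also lost with no replicate block (adjusted p = 0.0781), as was *Gpx3* in fibroblast-like cells (adjusted p = 0.0768). In TBC-like cells the *Gpx4* call was lost without P28 replicate 1 or 2 (adjusted p = 0.102 and 0.0607). With no replicate block *Gpx4*, *Gpx1* and *Cat* were lost there (adjusted p = 0.0647, 0.0935 and 0.273). *Cat* was also lost there without P28 replicate 1 or 2 (adjusted p = 0.332 and 0.447), by DESeq2 (adjusted p = 0.0946) and after thinning (adjusted p = 0.143). With at least 10 UMIs in every sum *Sod3* had no fitted value in TBC-like and fibroblast-like cells. *Gpx3*, *Mt2* and *Mt3* had none in these or mesenchymal-like cells, nor had *Mt1* in TBC-like and mesenchymal-like cells or *Cat* in TBC-like cells. OHC-like cells had 0, 2.40 and 2.90 CPM, where the 0 at P14 allows up to 1.97 CPM, and SGN-like cells 1.75 and 2.47 CPM.

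The metallothionein genes lie side by side on the forward strand of chromosome 8 (GRCm38): *Mt3* at chr8:94152607-94154146, *Mt2* at chr8:94172664-94173568 and *Mt1* at chr8:94179082-94180327. The gap is 18517 bases between *Mt3* and *Mt2* and 5513 bases between *Mt2* and *Mt1*. The annotation puts *Gm45774* on the other strand over *Mt2*. The 250 bases before each RefSeq start, which for *Mt1* and *Mt2* differs from the GENCODE start above, are printed because these neighbouring genes differed in level between classes. They are RefSeq sequence of GRCm38.p6, 5′ to 3′, at chr8:94178839-94179088, chr8:94172368-94172617 and chr8:94152357-94152606. Capitals mark the core of the metal response element, searched as TGCACNC and TGCGCNC on both strands.
Mt1: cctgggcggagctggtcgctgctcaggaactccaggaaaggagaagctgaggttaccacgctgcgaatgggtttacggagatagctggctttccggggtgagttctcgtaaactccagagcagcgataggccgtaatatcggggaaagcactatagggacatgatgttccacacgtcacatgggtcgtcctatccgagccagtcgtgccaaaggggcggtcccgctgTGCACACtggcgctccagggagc
Mt2: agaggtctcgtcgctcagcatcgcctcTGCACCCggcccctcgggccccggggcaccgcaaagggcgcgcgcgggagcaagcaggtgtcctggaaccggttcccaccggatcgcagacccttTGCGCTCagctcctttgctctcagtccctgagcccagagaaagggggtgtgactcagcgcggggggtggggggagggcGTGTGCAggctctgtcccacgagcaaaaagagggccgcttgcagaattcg
Mt3: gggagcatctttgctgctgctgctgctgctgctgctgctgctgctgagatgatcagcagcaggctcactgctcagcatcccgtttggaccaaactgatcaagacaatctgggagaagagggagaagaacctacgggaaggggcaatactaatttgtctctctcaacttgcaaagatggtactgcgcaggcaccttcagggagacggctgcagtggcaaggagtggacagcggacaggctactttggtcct
The *Mt1* window held 1 core, at -23 to -17 from the RefSeq start, where the base before it is -1. The *Mt2* window held 3, at -223 to -217, -128 to -122 and -50 to -44, the last of them on the reverse strand. The *Mt3* window held 0. Bases outside the windows, those past each start included, were not searched, so these counts do not cover a gene's whole promoter. Of 32851 windows of this length, 21.4% held 1 or more and 1.26% held 3 or more. The core of the antioxidant response element, searched as TGACNNNGC, is not marked. The *Mt2* window held 1 such core, at -79 to -71, and the *Mt1* and *Mt3* windows held 0. Of all windows 10.2% held 1 or more. A match describes letters alone, since binding was not measured.

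At P28 all 3 metallothioneins had their highest values among named classes in glia. SC/SGC-like cells had 2531 and 2868 CPM of *Mt1*, 506 and 526 CPM of *Mt2* and 3859 and 4083 CPM of *Mt3*. Their 8 markers summed to 29868 and 27084 CPM there, against 72.5, 99.96 and 120.2 CPM in OHC-like cells. The strial cells of P28 replicate 2 differed from each other: IC-like cells had 1358 CPM of *Mt1* and 109 CPM of *Mt3*, while MC-like cells had 1187 and 3387 CPM. The intervals of *Mt3* were 76.6 to 151 and 3021 to 3785 CPM. The order of *Mt3* between MC-like and SC/SGC-like cells in P28 replicate 2 was not resolved. SGN-like cells had 1081 and 1272 CPM of *Mt3* and 80.96 and 171 CPM of *Mt1*.

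**Figure D4:**
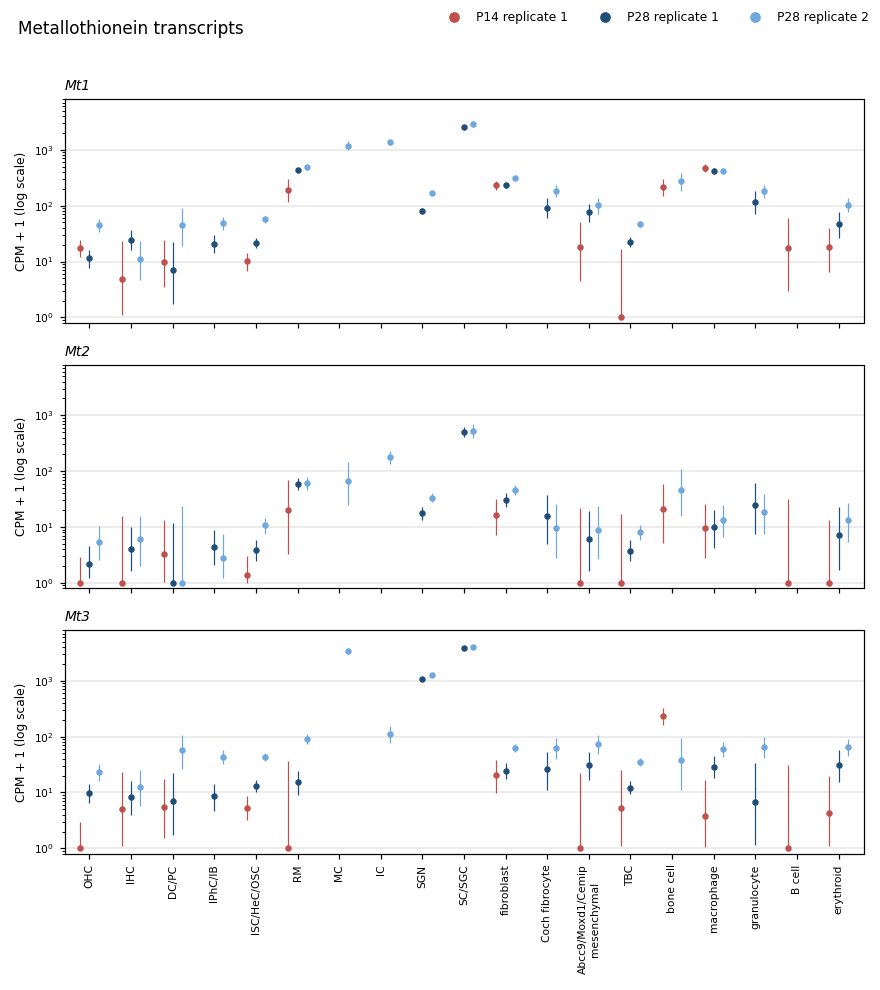
Levels of *Mt1*, *Mt2* and *Mt3* by class and library (colour), in CPM plus 1 on a log scale, with exact 95% Poisson intervals as bars. At P28 SC/SGC-like cells have the highest value of each gene among named classes. SGN-like cells stand at 1081 and 1272 CPM for *Mt3* but at 16.7 and 32.7 CPM for *Mt2*.

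The makeup of the metallothionein transcripts differed between classes. *Mt3* gave 91.7% and 86.2% of the UMIs of the 3 genes in SGN-like cells and 56.0% and 54.6% in SC/SGC-like cells. It gave 0.592%, 6.19% and 11.9% in macrophage-like cells. Of the UMIs of *Mt1* and *Mt2*, *Mt1* gave 83.3% and 84.5% in SC/SGC-like and 98.2%, 97.9% and 97.1% in macrophage-like cells. The exact binomial intervals of these shares at P28 were 79.8% to 86.5% and 80.0% to 88.3% in SC/SGC-like cells, below the 95.5% to 99.2% and 94.6% to 98.7% of macrophage-like cells.

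Macrophage-like cells had 471, 417 and 423 CPM of *Mt1*, 4.31-fold more than all other cells (2.11 ± 0.34, adjusted p = 0.00217), a call kept under all 15 alternatives. *Mt2* was at 8.57, 8.87 and 12.6 CPM there and was not called (-0.57 ± 0.39, adjusted p = 0.302). In RM-like cells *Mt1* was at 190.0, 435 and 485 CPM (1.40 ± 0.25, adjusted p = 2.73e-05) and *Mt2* at 19.0, 58.3 and 60.3 CPM (1.64 ± 0.21, adjusted p = 1.13e-07), both higher than elsewhere. The *Mt1* call was lost without P28 replicate 1 (adjusted p = 0.141) and the *Mt2* call without P28 replicate 1 (adjusted p = 0.0843). The *Mt1* call was also lost with no replicate block (adjusted p = 0.0667). In fibroblast-like cells *Mt1* was at 231, 231 and 314 CPM (1.14 ± 0.22, adjusted p = 0.0100) and *Mt2* at 15.1, 30.1 and 45.4 CPM (1.09 ± 0.19, adjusted p = 0.00663). The *Mt1* call was lost without P28 replicate 1 (adjusted p = 0.137) and the *Mt2* call without P28 replicate 1 (adjusted p = 0.158) and without P28 replicate 2 (adjusted p = 0.117). With up to 30% mitochondrial UMIs the *Mt1* value in fibroblast-like cells was 0.022 (adjusted p = 0.97), and with 200 to 3000 genes and at most 15000 UMIs it was 0.20 (adjusted p = 0.612). That *Mt1* call was also lost with no replicate block (adjusted p = 0.0892) and after thinning (adjusted p = 0.21). The *Mt2* call was also lost with 200 to 3000 genes and at most 15000 UMIs (adjusted p = 0.0651), with at most 30% mitochondrial UMIs (adjusted p = 0.0848) and with no replicate block (adjusted p = 0.128).

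*Mt1* and *Mt2* were each lower in 6 of the 10 classes, which were OHC-like, IHC-like, DC/PC-like, ISC/HeC/OSC-like, TBC-like and mesenchymal-like cells. *Mt3* was lower in 9 and higher in none by edgeR (0 at an unadjusted p under 0.05 and 0 by DESeq2). The *Mt1* call was lost in mesenchymal-like cells without P28 replicate 2 (adjusted p = 0.0689) and with no replicate block (adjusted p = 0.255). The *Mt2* call was lost without P28 replicate 1 in mesenchymal-like, DC/PC-like, ISC/HeC/OSC-like and OHC-like cells (adjusted p = 0.208, 0.106, 0.0765 and 0.051) and without P28 replicate 2 in mesenchymal-like and DC/PC-like cells (adjusted p = 0.249 and 0.145). DESeq2 lost the *Mt2* call in mesenchymal-like and DC/PC-like cells (adjusted p = 0.14 and 0.0597), and thinning in DC/PC-like cells (adjusted p = 0.134). With no replicate block it was lost in mesenchymal-like, ISC/HeC/OSC-like and TBC-like cells (adjusted p = 0.171, 0.111 and 0.0507). In IHC-like cells it was lost with 200 to 3000 genes and at most 15000 UMIs (adjusted p = 0.318). In ISC/HeC/OSC-like cells it was lost with up to 30% mitochondrial UMIs (adjusted p = 0.0562). The *Mt3* call was lost without P28 replicate 1 in fibroblast-like cells (adjusted p = 0.171). With no replicate block 6 of the 9 *Mt3* calls were lost (adjusted p = 0.0711 to 0.245), those of mesenchymal-like, DC/PC-like, ISC/HeC/OSC-like, RM-like, fibroblast-like and macrophage-like cells. In macrophage-like cells the value turned to 0.074 (adjusted p = 0.943) with 200 to 3000 genes and at most 15000 UMIs. The other cells in these fits held the SGN-like and SC/SGC-like cells at P28, and the cells without a class name in each library. These unnamed cells had 447, 55.3 and 127 CPM of *Mt3*. All other cells together had 27.2, 213 and 271 CPM of *Mt3* in the OHC-like comparison. Where metallothionein levels were low, most were higher in P28 replicate 2 than in replicate 1, and *Mt1* in IHC-like cells, at 23.7 and 10.1 CPM, was an exception. In OHC-like cells *Mt1* was at 10.4 and 43.4 CPM and *Mt3* at 8.80 and 22.4 CPM in these libraries, and in RM-like cells *Mt3* was at 14.1 and 90.5 CPM. The SC/SGC markers in OHC-like cells, given above, moved with them in the same direction, and their part was not tested.

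Other genes that handle peroxides or metals, and genes that respond to cell handling, were counted from 5 lists, in the fit described above and without its alternatives. The lists held 11 genes of glutathione synthesis and reduction, 12 peroxiredoxins and thioredoxins and 9 glutathione transferases. They also held 11 metal and redox genes, ferritin chains and copper chaperones among them, and 12 immediate early and heat shock genes. Counts are of the genes tested. Of all genes tested between OHC-like and IHC-like cells 16.8% were higher and 17.1% lower. Between OHC-like and IHC-like cells 1 of 9 genes of glutathione synthesis and reduction was called, *Gclm*, which was lower (-0.74 ± 0.21, adjusted p = 0.0203), with a median log2 value of -0.36 against 0.049 over all genes. Of 11 peroxiredoxin and thioredoxin genes 4 were higher and 2 lower (median 0.030). *Prdx5*, a mitochondrial and peroxisomal peroxiredoxin, was at 1540.3, 758 and 667 CPM in the OHC-like and 701, 222 and 155 CPM in the IHC-like sums (1.80 ± 0.20, adjusted p = 1.02e-04). *Prdx6*, which also reduces phospholipid peroxides, was at 40.0, 82.0 and 61.5 CPM against 127, 224 and 205 CPM, in the opposite direction (-1.46 ± 0.15, adjusted p = 7.45e-05). Of 5 glutathione transferases 3 were higher and 1 lower (median 1.24), with *Gstm1* at 9.06, 48.8 and 57.2 CPM against 0, 11.4 and 20.2 CPM (2.00 ± 0.31, adjusted p = 8.28e-04).

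Of 8 metal and redox genes 2 were higher and 3 lower in OHC-like than in IHC-like cells (median 0.32), against 16.8% and 17.1% of all genes. *Fth1*, the ferritin heavy chain, was at 1104, 1736 and 1548 CPM against 3719.9, 3719.8 and 3133 CPM (-1.15 ± 0.16, adjusted p = 5.11e-04). *Ccs*, the copper chaperone of SOD1, was higher, at 156, 88.8 and 82.5 CPM against 103, 40.2 and 48.8 CPM (0.99 ± 0.18, adjusted p = 0.00247). Of 7 immediate early and heat shock genes 3 were called, all lower (median -0.61).

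Against supporting cell-like cells 1 of 9 glutathione genes was higher and 2 lower in OHC-like cells, where 23.5% of all genes were higher and 28.5% lower. The counts were 3 and 4 of 12 peroxiredoxin and thioredoxin genes, 1 and 4 of 7 transferases, and 3 and 3 of 9 metal and redox genes. The medians were -0.045, -0.20, -1.50 and -0.18, against -0.056 over all genes. *Prdx6* was at 40.0, 82.0 and 61.5 CPM against 393, 372 and 338 CPM in supporting cells (-2.69 ± 0.22, adjusted p = 1.09e-05). *Nfe2l2*, which encodes the NRF2 activator of antioxidant genes, was at 60.2, 78.8 and 76.0 CPM against 11.2, 15.0 and 28.0 CPM (1.89 ± 0.25, adjusted p = 2.35e-04). Of 9 immediate early and heat shock genes 2 were higher and 7 lower, with a median of -2.84. *Fos* was at 2.13, 6.80 and 3.62 CPM against 22.5, 62.2 and 42.1 CPM (-3.39 ± 0.28, adjusted p = 1.27e-05). The part of this difference in the levels of the members was not tested.

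In macrophage-like cells 5 of 11 metal and redox genes were higher and 1 lower, against 14.5% and 16.2% of all genes. The higher ones included *Hmox1*, the inducible haem oxygenase, at 231, 47.3 and 51.8 CPM against 2.54, 4.10 and 4.52 CPM (4.63 ± 0.55, adjusted p = 4.07e-04), and *Ftl1*, the ferritin light chain, at 9085, 5926 and 4494 CPM against 1476, 2442 and 2108 CPM (1.89 ± 0.27, adjusted p = 0.00108). In ISC/HeC/OSC-like cells 4 of 11 metal and redox genes were higher and 2 lower, against 19.9% and 21.8% of all genes. *Atox1*, a copper chaperone, was at 2512, 2471 and 2315 CPM against 430.5, 422 and 401 CPM (2.96 ± 0.15, adjusted p = 9.04e-04).

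With 1 library at P14 the ages were compared by a rule with no test. A member passed where its P14 level was at least 2-fold from both P28 levels in 1 direction and its Poisson interval overlapped neither of theirs. Of 100 pairs of a member and a class seen in all 3 libraries 59 had 50 CPM or more at either age, and 9 of these passed, 6 higher at P28 and 3 higher at P14. Of all genes with such a level 6.4% passed in RM-like cells, the lowest share of a class, and 59.3% in erythroid-like cells, the highest. RM-like cells held 3 of the 9, where 6.4% of all genes passed. There *Cat* was at 228 CPM at P14 against 72.5 and 87.2 CPM at P28, *Sod2* at 304 CPM at P14 against 139 and 141 CPM at P28, and *Mt1* at 190.0 CPM at P14 against 435 and 485 CPM at P28. The *Cat* intervals were 146 to 339 at P14, 57.7 to 89.99 and 69.3 to 108 at P28. The P14 value came from 40 RM-like cells. Markers of marginal cells summed to 5312, 2514 and 2518 CPM in RM-like cells, and those of spindle and root cells to 1938.5, 844 and 1140 CPM. The RM markers were also highest at P14, at 14159, 10690 and 8255 CPM. The part of this makeup in the 3 differences was not tested.

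In erythroid-like cells *Gpx1* was at 2329 CPM at P14 against 1090.2 and 808 CPM at P28, and *Gpx3* at 0 CPM at P14 against 45.4 and 80.6 CPM at P28, in a class where 59.3% of all genes passed. The haemoglobin chains took 373791, 707310 and 633868 CPM of this class and were lowest at P14. CPM are scaled to all UMIs, haemoglobin included, so the other genes shared a larger rest of the sum at P14. Among its alternatives the rule was run with mitochondrial, ribosomal protein and haemoglobin genes left out together. The part of haemoglobin alone in these values was not tested. In ISC/HeC/OSC-like cells *Gpx3* was at 11.2 CPM at P14 against 48.7 and 66.3 CPM at P28 (12.4% of all genes). *Gpx1* in TBC-like cells was at 47.8 CPM at P14 against 122 and 124 CPM at P28 (13.7%). *Sod3* in fibroblast-like cells was at 13.0 CPM at P14 against 69.9 and 57.9 CPM at P28 (10.4%). *Mt1* in the mesenchymal-like cells was at 17.2 CPM at P14 against 75.5 and 99.8 CPM at P28 (7.93%). No member passed in OHC-like (10.6% of all genes), IHC-like (15.8%), DC/PC-like (10.1%) or macrophage-like cells (11.7%). In OHC-like cells *Cat*, *Sod3*, *Gpx3*, *Mt1*, *Mt2* and *Mt3* lay under 50 CPM at both ages and were outside the rule. *Sod3*, *Gpx3*, *Mt1*, *Mt2* and *Mt3* were outside it in IHC-like and DC/PC-like cells too, and *Sod3*, *Mt2* and *Mt3* in macrophage-like cells. Age and library cannot be told apart here.

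**Figure D5:**
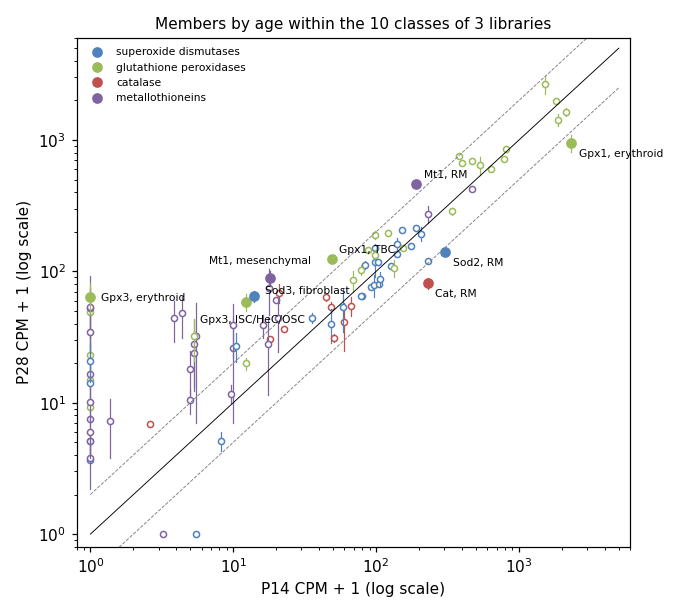
Levels of the members at P14 against P28 in the 10 classes found in all 3 libraries, in CPM plus 1 on log scales, with dashed lines at 2-fold. The 9 pairs past the rule are filled and labelled, among them *Sod2* in RM-like cells at 304 CPM at P14 against 139 and 141 CPM at P28.

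Genes with the most similar levels were sought over 40 sums of a class and library with at least 50 cells, among 3604 genes with a mean of 50 CPM or more, by Pearson's r of log2(CPM + 10). The sums share libraries and depth, so r is a description. *Gpx3* was most like *Lrp2* (0.92), *Vmo1* (0.91) and *Cndp2* (0.90), of which *Lrp2* and *Vmo1* were used to name MC-like and RM-like cells. *Gpx1* was most like *Blvrb* (0.79), *Gmfg* (0.77) and *Coro1a* (0.75), and *Gpx4* most like *Anapc13* (0.90), *Sirt2* (0.90) and *1810037I17Rik* (0.89). *Sod1* was most like *Tgoln1* (0.87), *Usp9x* (0.85) and *Canx* (0.84), *Sod2* most like *Pgam1* (0.84), *Vdac1* (0.84) and *Nudt3* (0.83), and *Mt1* most like *Fnbp1* (0.69), *Grina* (0.69) and *Degs1* (0.66). Among the members r was 0.77 between *Sod1* and *Sod2*, 0.73 between *Sod1* and *Gpx4*, and -0.63 between *Sod1* and *Gpx1*. *Sod3*, *Cat* and *Mt2* had means under 50 CPM.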

How the data were processed

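The authors deposited UMI counts per gene and cell barcode from 10x 3′ v3.1 libraries. The matrix header names Cell Ranger 5.0.1, the submitters' processing notes Cell Ranger 6.0.1 and build mm10. Barcodes with 200 to 6000 genes and at most 15% mitochondrial UMIs were kept and clustered per age in Seurat 5.3.0 (2000 variable genes without the members, 30 components, resolution 1). Clusters were named from fixed markers. 2 refinements, on opposing markers and on clusters named by haemoglobin alone, were made after the clusters were seen. Doublets were not removed, except in an alternative with scanpy 1.11.5.

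Counts were summed per class and library where 20 cells were present. All other cells in a comparison were all kept cells outside the class, those without a class name included. Sums were tested with edgeR 4.0.16 (quasi-likelihood, TMM, filterByExpr) in R 4.3.3, with library as a block, Benjamini-Hochberg adjustment over all genes tested and a threshold of 0.05. DESeq2 1.42.0 was an alternative. The block follows the shared mice of a library, and sums of 1 library deviated together (correlations 0.163 to 0.554 over the 12 comparisons). Each library is 1 pool of mice, so p-values measure the spread between 3 pools, P14 and P28 together. Scripts were tested on simulated data. Named were all members, at most 4 genes of a list with the largest fold, and the 3 genes most like each member, which for *Mt3* are not reported here. The members, lists and tests were chosen with earlier results of these data known. Library totals were 10125255, 35485894 and 37530956 UMIs, and library pairs shared 4, 7 and 10 barcodes. Gene positions are from GENCODE M21, and promoters from RefSeq were found for 9 of 10 members.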

Additional observations from a re-analysis of the deposited data

Results flagged for a closer look

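In 7 comparisons of members with at least 20 UMIs in each group the P14 library moved one way and both P28 libraries the opposite way. None of these differences between ages was tested, since P14 had 1 library. CPM are given for P14, P28 replicate 1 and P28 replicate 2, first in the class and then in the cells it was set against.

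In OHC-like cells *Sod1* was at 138, 139 and 132 CPM against 127, 155 and 156 CPM in all other cells, higher at P14 and lower at P28. *Sod2* in OHC-like cells was at 95.4, 63.2 and 92.7 CPM against 83.2, 119.7 and 103 CPM in IHC-like cells, again higher at P14 alone. *Mt1* in OHC-like cells was at 16.5, 10.4 and 43.4 CPM against 8.99, 17.2 and 46.7 CPM in supporting cell-like cells, also higher at P14 alone. In IHC-like cells *Cat* was at 19.8, 56.8 and 79.0 CPM against 37.7, 47.0 and 53.7 CPM in all other cells, lower at P14 and higher at P28.

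*Sod2* in ISC/HeC/OSC-like cells was at 229.8, 120.1 and 116 CPM against 99.0, 133 and 139 CPM in all other cells, higher at P14 alone. *Cat* in fibroblast-like cells was at 49.7, 28.1 and 32.4 CPM against 36.3, 48.7 and 56.6 CPM, and *Gpx3* in macrophage-like cells at 131, 121 and 89.6 CPM against 30.2, 167 and 139 CPM, both higher at P14 alone. The other cells of P28 held more RM-like cells (429 and 423) than those of P14 (40), and their part in the *Gpx3* values was not tested.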

How the results depend on the processing

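Of the 68 calls of a member, 26 were kept under every alternative that gave a value and 11 under all 15. With at least 10 UMIs in every sum 35 of the 68 had no value. Calls lost numbered 30 without P28 replicate 1, 20 without replicate 2 and 0 without P14, and 32 in the fit without the library as a block. Members called between OHC-like and IHC-like cells numbered 2, and 0 with 200 to 3000 genes and at most 15000 UMIs, 0 with at least 10 UMIs in every sum, 0 after thinning, 1 with no replicate block, 1 by DESeq2 and 1 to 4 with a library left out. Against supporting cell-like cells they numbered 4, and 2 with at least 10 UMIs in every sum and 2 to 4 with a library left out, and the filter of 200 to 3000 genes gave no value there. In the 10 comparisons with all other cells they numbered 62, and 32 with no replicate block, 32 with at least 10 UMIs in every sum and 35 to 76 with a library left out. Age pairs past the rule numbered 9, and 14 without mitochondrial, ribosomal protein and haemoglobin genes, 18 with up to 30% mitochondrial UMIs and 5 after thinning. *Mt3* in macrophage-like cells reversed from -2.23 to 0.074 (adjusted p = 0.943 by edgeR) with 200 to 3000 genes and at most 15000 UMIs. Thinning and the minimum of 10 UMIs leave fewer genes tested, and the cause of the other changes was not tested. Genes higher and lower in OHC-like than in IHC-like cells numbered 1589 and 1620, and 466 and 450 with the narrower cell filter, 781 and 931 with no replicate block, 899 and 1145 by DESeq2, 869 and 825 with at least 10 UMIs in every sum, 428 and 405 after thinning, 2370 and 2539 without P14, 778 and 935 without P28 replicate 1 and 1020 and 1177 without replicate 2. Against supporting cell-like cells they numbered 2490 and 3024, and 1529 and 1516 with at least 10 UMIs in every sum, 1375 and 1338 after thinning, 1460 and 1873 without P28 replicate 1 and 1724 and 2215 without replicate 2. The setting that leaves out the 5% highest doublet scores was chosen after seeing the data and lost 1 of the 68 calls. With P14 left out no P14 value remains for the age rule. *Cat*, *Sod3* and *Mt2* had few UMIs in hair cells, which limits their precision.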

Other observations

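Clusters without a class name also held members at high levels, and these are given as values with no comparison. A P14 cluster of 27 cells had 2854 CPM of *Mt1*, 653 CPM of *Mt2* and 1187 CPM of *Mt3*. Over all kept P14 cells the 8 SC/SGC markers summed to 1236 CPM. Among named P14 classes bone cell-like cells had 1503 CPM of them, and all others 884 CPM or less. Much of that sum thus lay in cells without a class name, and no P14 class was named SC/SGC-like. The cell type of this cluster was not tested. A P28 cluster of 235 and 375 cells led by *Fxyd2*, *Kcnk2*, *Gjb2* and *Hhatl* had 547 and 792 CPM of *Mt1* and 1396 and 1429 CPM of *Gpx4*. A P28 cluster of 166 and 270 cells led by *Ceacam16*, *Tcap*, *Slc26a4* and *Fxyd3* had 119.6 and 120.4 CPM of *Cat*.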
